A study of Rattus norvegicus with 93 samples.

Results

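Skeletal muscle contraction and its energy supply were followed through 47 genes of the sarcomere, the calcium release machinery and muscle metabolism during the healing of rat calvarial defects. The genes were taken by symbol from a list that was chosen with earlier results of these data known. The rule itself used no measured value. All 47 were found among the 15974 genes measured, with Myl11 listed under its older symbol Mylpf. They comprised 10 genes of the thick filament, 9 of the thin filament and troponin, 12 of the Z-disc with titin and desmin, 9 of excitation and calcium handling, 5 of energy supply and the 2 myogenic factors Myod1 and Myog.

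The study made trephine holes of 4 mm or 8 mm in the skull roof of male rats aged 12 weeks, the larger being the critical size that the labels call CSD and the smaller non-CSD. The dura was kept intact, no treatment was given, and the tissue filling each single hole was taken by trephine at the size of that hole, and its RNA was put on a one-colour whole-genome rat array labelled with Cy3. At days 1, 3, 5, 7, 10, 14 and 21 the 4 mm defects gave 3, 8, 11, 5, 4, 5 and 6 arrays, and the 8 mm defects gave 5, 11, 12, 5, 6, 6 and 6. Comparisons in time are with day 1 after surgery, or of day 21 with day 7, since bone without a defect was not analysed here.

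Each deposited value is a ratio to the median of that probe over the 93 arrays, given here as log2; that median was 1 for 87.8% of probes and below 1 for the rest. A value of 0 is thus the gene's own median for most genes, a value of 1 is 2 times it, and values of different genes are not levels that can be set against each other. The lowest ratio is 0.01, a floor of -6.64 on the log2 scale, and 6 of the 47 genes (Myl11, Tnnc1, Tnni2, Des, Pygm and Eno3) never reached it. The share of all values at the floor had a median of 10.2% per array at days 1 to 5 and 17.6% at days 7 to 21. On 7 arrays the median of all probes that never reached the floor was below -0.7, among them 2 of the 8 day 1 arrays, 4 mm rat 13 and 8 mm rat 11.

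In a muscle fibre, myosin in the thick filament pulls on actin in the thin filament, the Z-disc anchors the thin filaments, and titin spans the sarcomere from Z-disc to its middle. Contraction starts when calcium released from the sarcoplasmic reticulum binds troponin, and creatine kinase, myoglobin and glycolytic enzymes supply the energy. Fast and slow fibres use different isoforms of most of these proteins, and bone of the skull roof has no such fibres of its own, although the temporalis and other muscles attach nearby.

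Promoter sequences were taken from RefSeq on the GRCr8 assembly, where 38 of the 47 genes had an entry. The 150 bases before the start of 5 genes are shown because Myh4, Acta1 and Tnnc2 had some of the widest ranges between groups, Myog is one of the 2 muscle-determining factors, and Casq2 was the gene that followed the others least. Each sequence runs 5′ to 3′ on the gene's strand. Capitals mark matches, on either strand, to the E-box CANNTG, the letters TATAAA, the CArG box or the MEF2 site. They lie at chr10:52421998-52422147 (plus strand), chr19:68784195-68784344 (minus), chr3:173935340-173935489 (minus), chr13:48297326-48297475 (plus) and chr2:192214406-192214555 (plus).
Myh4: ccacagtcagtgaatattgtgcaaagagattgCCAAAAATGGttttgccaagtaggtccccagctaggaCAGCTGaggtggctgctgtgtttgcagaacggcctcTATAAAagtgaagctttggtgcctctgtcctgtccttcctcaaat
Acta1: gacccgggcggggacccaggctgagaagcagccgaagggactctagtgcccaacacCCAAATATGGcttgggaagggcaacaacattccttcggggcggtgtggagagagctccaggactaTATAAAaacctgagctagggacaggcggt
Tnnc2: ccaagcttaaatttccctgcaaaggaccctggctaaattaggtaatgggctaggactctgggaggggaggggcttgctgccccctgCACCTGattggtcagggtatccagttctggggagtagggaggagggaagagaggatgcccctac
Myog: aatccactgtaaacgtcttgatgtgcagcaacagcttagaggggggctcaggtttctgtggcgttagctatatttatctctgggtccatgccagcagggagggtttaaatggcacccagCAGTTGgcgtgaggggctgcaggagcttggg
Casq2: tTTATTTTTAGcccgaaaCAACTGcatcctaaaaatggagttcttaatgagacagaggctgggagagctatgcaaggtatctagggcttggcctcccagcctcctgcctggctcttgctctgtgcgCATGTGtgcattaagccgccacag

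The promoter of Myh4 held a CArG box at -118, an E-box of the form CAGCTG at -81 and TATAAA at -45 relative to the start. That of Acta1 held a CArG box at -94 and TATAAA at -29. Tnnc2 and Myog each held 1 E-box in this stretch, at -64 and -31, and Casq2 held a MEF2 site and 2 E-boxes. Over the 250 bases before the start, CANNTG occurred in 31 of the 38 promoters (81.6%) against 65.5% of 33465 promoters of the table, and CAGCTG, which is one form of it, in 12 (31.6%) against 12.0%. TATAAA occurred in 12 (31.6%) against 12.9%, the CArG box in 4 (10.5%) against 1.5% and the MEF2 site in 6 (15.8%) against 3.0%. These shares describe letters in a window, and no binding was measured.

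In the first days the 47 genes were nearly all high on some arrays and nearly all low on others, and from day 7 on they were low on most. The number of them above a log2 value of 1 had a median of 38.5, 35, 18, 2, 3, 4 and 4 on the 7 days in order. At least 20 of the 47 were above 1 on 6 of 8 day 1 arrays, 12 of 19 day 3 arrays, 10 of 23 day 5 arrays, 2 of 10 day 7 arrays and 0 of 33 later ones. Of the 50 arrays of days 1 to 5, 17 had 40 or more of the genes above 1 and 17 had fewer than 8. Of the 43 later arrays, 37 had fewer than 8.

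**Figure D1:**
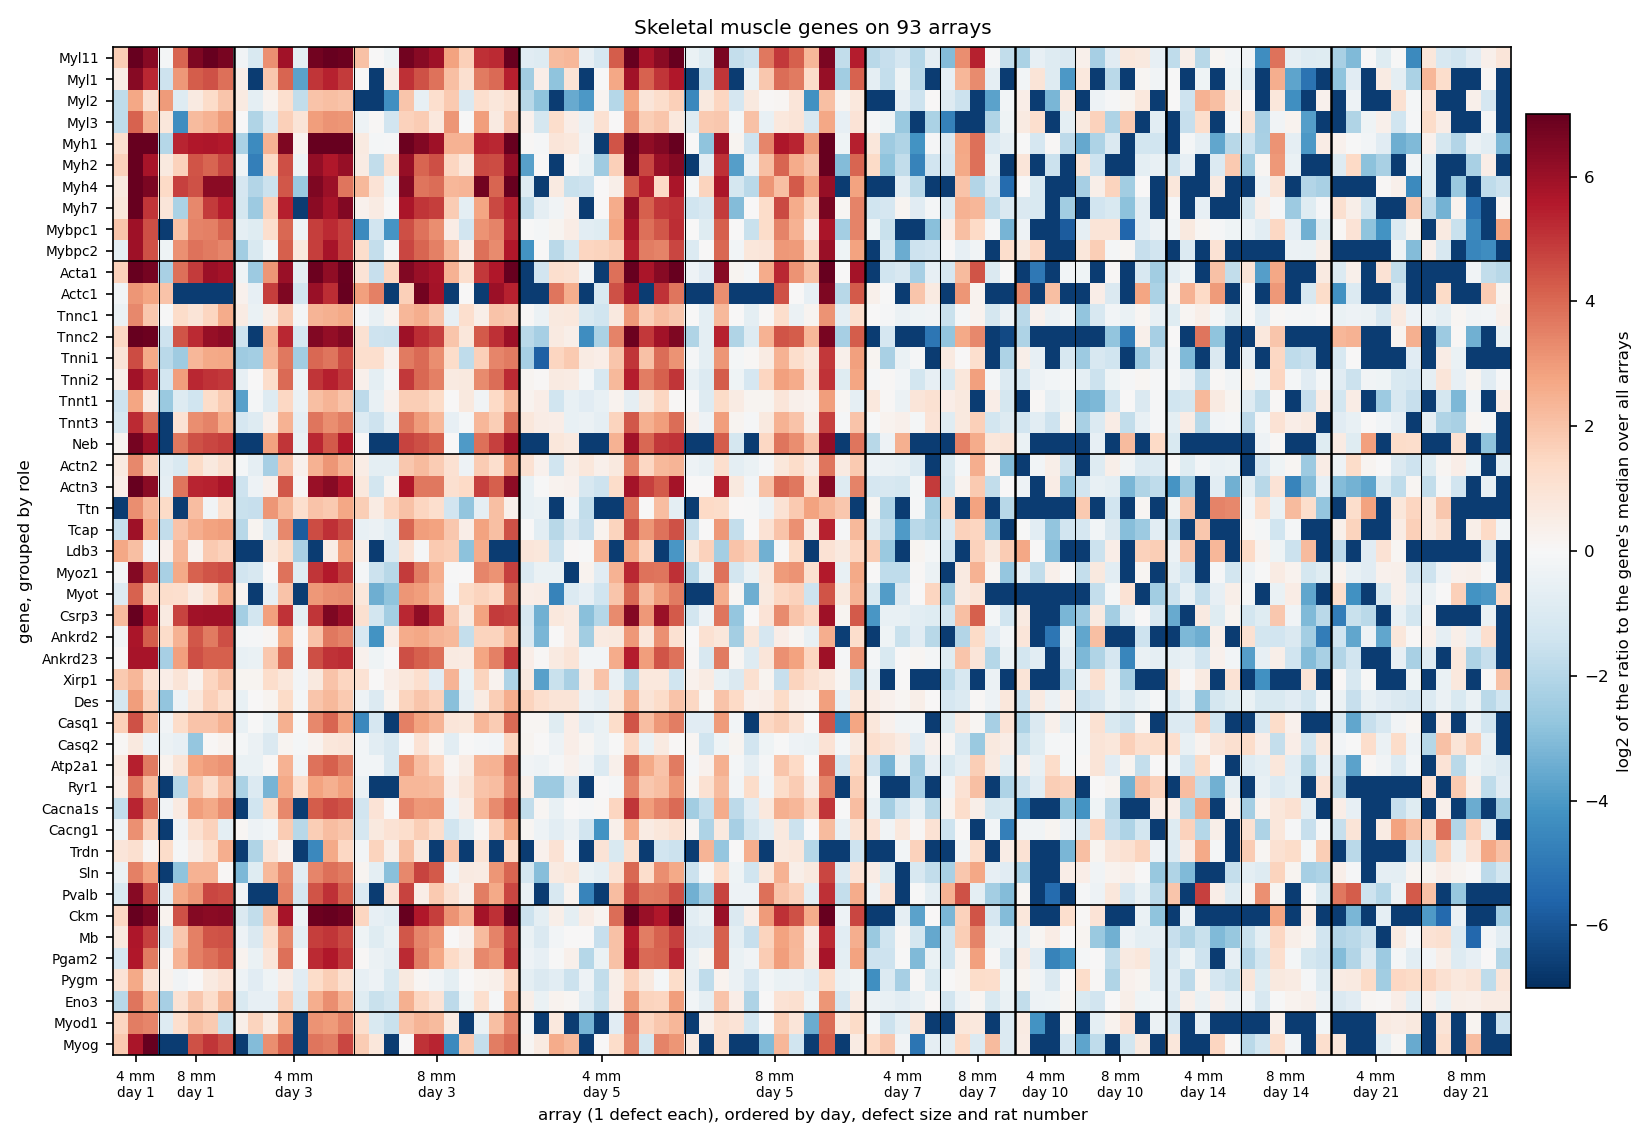
Log2 value, relative to each gene's own median, of the 47 genes (rows, ordered by role) on the 93 arrays (columns, ordered by day and defect size). At days 1 to 5 whole columns are high or low together, with 17 of 50 arrays having 40 or more of the genes above 1, and from day 10 on no array has 20.

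At day 1 the 4 mm arrays of rats 13, 17 and 18 had 13, 46 and 42 of the 47 genes above 1. The 8 mm arrays of rats 11, 12, 13, 14 and 16 had 7, 26, 36, 42 and 41. The lowest count in each size was on the array of low overall level. After centring every array on its own median the lowest count of the 8 day 1 arrays was 16 and the median 39.

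At day 3 the arrays of one size lay far apart. The 4 mm arrays of rats 13, 14, 16, 17, 18, 19, 21 and 22 had 0, 1, 21, 43, 2, 43, 45 and 46 genes above 1. The 8 mm arrays of rats 12 to 22 had 11, 3, 4, 43, 41, 41, 23, 10, 35, 39 and 44. Neither size had the high counts to itself.

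At day 5 the 4 mm arrays of rats 10 to 14 and 16 had 2, 1, 7, 5, 1 and 4 genes above 1, while those of rats 17 to 21 had 27, 45, 35, 41 and 40. The 8 mm arrays of rats 11 and 12 had 1 and 7, and those of rats 14 to 23 had 40, 2, 5, 18, 35, 33, 18, 45, 1 and 35. At day 7 only 8 mm rats 12 and 13 had 20 or more, with 20 and 28. The highest count from day 10 on was 19, on the 8 mm day 14 array of rat 12.

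**Figure D2:**
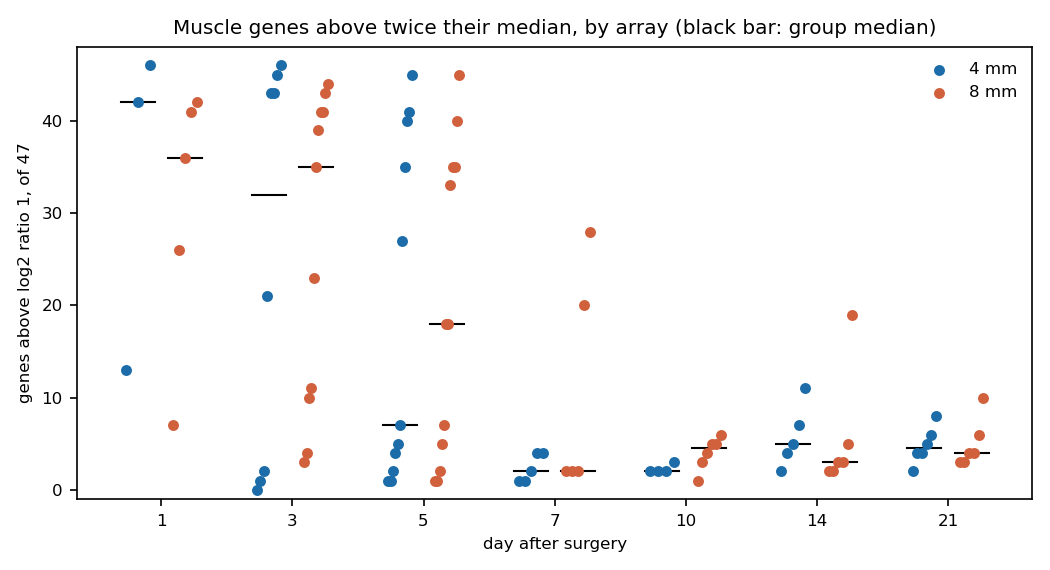
Number of the 47 genes with a log2 value above 1 on each array (vertical axis) by day after surgery (horizontal axis), one point per array, coloured by defect size. Counts spread from 0 to 46 at day 3 and from 1 to 45 at day 5, and lie at 19 or below from day 10 on in both sizes.

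The high arrays of the early days were mostly those of rats with high numbers in the titles. The limit between rats 16 and 17 used here was chosen after seeing the data. At days 1 to 5, rats numbered 17 or higher had at least 20 genes above 1 on 20 of 25 arrays (median 39) and rats numbered 16 or lower on 8 of 25 (median 7). At day 5 alone this was 9 of 12 against 1 of 11. Rats numbered 17 or higher gave 3 of the 43 arrays of days 7 to 21, which had 4, 7 and 11 genes above 1. Rat number and day are therefore largely mixed, the labels give the number no meaning beyond naming the rat, and its part in the day differences was not tested. In these bulk samples, fewer muscle cells and less RNA per muscle cell cannot be told apart.

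Compared with day 1, most of the 47 genes were lower from day 7 on, and those that changed all fell. The model (limma, both sizes weighted equally, Benjamini-Hochberg adjustment over 15974 genes, threshold 0.05) called 0, 4, 27, 30, 30 and 36 genes lower at days 3, 5, 7, 10, 14 and 21, and none higher on any of these days. Over all genes, 0.470%, 1.69%, 4.83%, 6.15%, 8.41% and 12.8% were called lower on the same days, and 5.97%, 17.3%, 16.6%, 10.4%, 12.6% and 13.4% were called higher. The median difference of the 47 was -1.09, -1.65, -3.63, -4.04, -4.18 and -4.43 at these days, where that of all genes was 0.20, 0.34, 0.25, -0.06, -0.06 and -0.18. The estimate was below 0 for 39, 42, 46, 46, 44 and 46 of the 47 genes. All these comparisons share the 8 arrays of day 1.

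At day 3 the count of 0 in limma stood beside 3 of 47 genes at an unadjusted p under 0.05 (6.38%), where all genes gave 16.1%. The 4 genes lower at day 5 were Myh4, Csrp3, Ankrd2 and Pygm. Ankrd2, a stress-responsive ankyrin repeat protein of the Z-disc and I-band, ranged from -0.20 to 5.74 (median 3.92, 8 arrays) at day 1 and from -6.60 to 3.18 (median 0.56, 23 arrays) at day 5. The day 5 median thus lay inside the day 1 range, and all 23 day 5 values were below the day 1 mean (difference -3.25 ± 1.02 SE, limma adjusted p = 0.0147). The day 5 count depended on single day 1 arrays, being 8 without 4 mm rat 13, 0 without 4 mm rat 17, 1 without 4 mm rat 18 and 2 without 8 mm rat 16. The day 7 count was 15 without 4 mm rat 17.

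With only the 65 arrays of rats numbered 16 or lower, a limit chosen after seeing the data, fewer genes were called from day 5 on and all of those were lower. The counts were 0 at days 3 and 5, 3 (Myh4, Tnnc2 and Xirp1) at day 7, and then 6, 4 and 11. Of all genes, 0.0626%, 0.438%, 1.25%, 1.07%, 1.67% and 3.29% were called lower in the same arrays. The last 11 were Myl11, Myh4, Mybpc2, Acta1, Tnni1, Actn3, Ldb3, Csrp3, Ankrd23, Atp2a1 and Ckm. The median differences of the 47 were then -2.23, -2.75, -2.40 and -3.07 at days 7 to 21. The 4 mm day 1 group is then 1 array, rat 13, whose overall level is low.

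More values were at the floor at the later days. Per array, a median of 1 of the 47 genes was at the floor at days 1 to 5 and 10 at days 7 to 21. When every ratio under 0.25 was raised to that value, 38 genes were called at day 7 and 37 at day 21, all lower. The share of all genes called under that setting is not given here, so the change in count is not read as particular to the 47. Among the 6 genes never at the floor, 5 were called lower at day 7 and 4 at day 21, with median differences of -1.76 and -1.64. Of all genes in the fit as reported, 4.83% and 12.8% were called lower at these days.

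**Figure D3:**
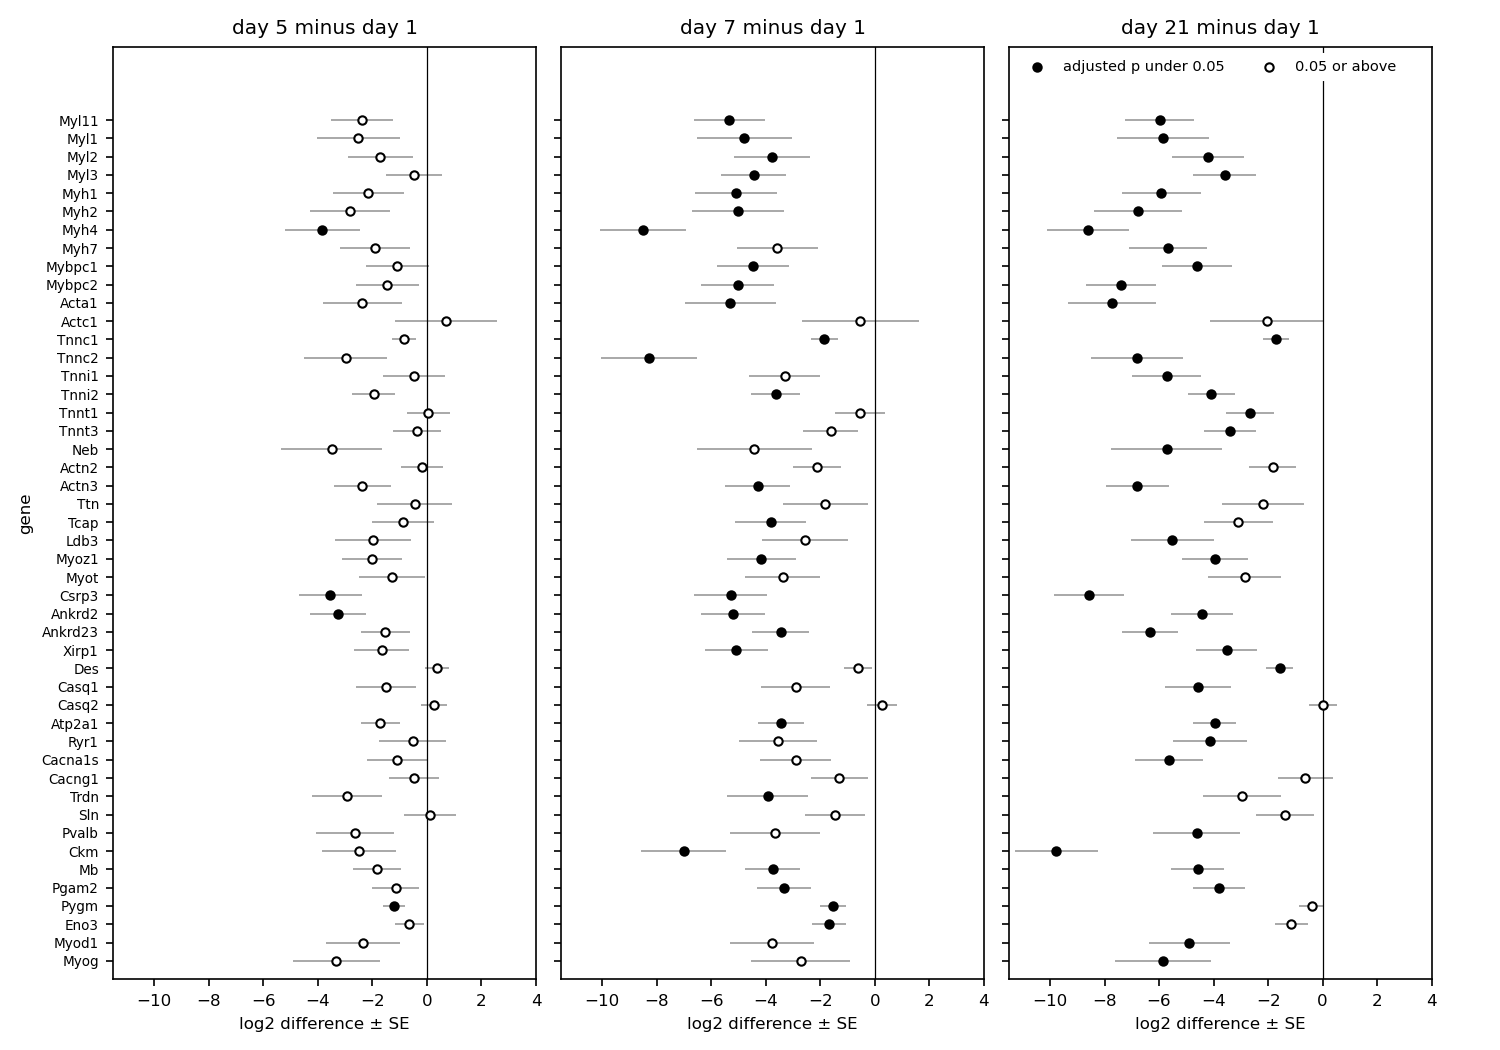
Difference from day 1 (log2, limma estimate with bars of 1 standard error) of each of the 47 genes at days 5, 7 and 21, by role, with filled points where the adjusted p is below 0.05. Filled points number 4, 27 and 36 at these days and all lie below 0.

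From day 7 to day 21 few of the 47 genes changed. The median difference was -0.65 for the 47 and -0.43 for all genes, and limma called 2 of the 47 lower where 12.9% of all genes were. Ankrd23 fell by 2.88 ± 0.93 (SE, adjusted p = 0.0234) and Csrp3 by 3.30 ± 1.18 (adjusted p = 0.0435). Neither call held under quantile normalization, and the count was 0 without 8 mm day 7 rat 12 and 1 without 4 mm day 7 rat 12, 13 or 15.

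Of the 10 thick filament genes, 9, 8, 8 and 10 fell at days 7, 10, 14 and 21, with median differences of -4.90 at day 7 and -5.88 at day 21. In all roles, each fall is measured from day 1. Myh4 encodes the myosin heavy chain of the fastest fibres. At day 1 it stood at 0.70, 8.40 and 6.60 in 4 mm rats 13, 17 and 18 and at 1.38, 4.77, 4.45, 6.34 and 6.34 in 8 mm rats 11, 12, 13, 14 and 16. At day 21 the lowest, median and highest of 6 arrays were -6.64, -5.56 and 0.33 in 4 mm defects and -6.64, -2.17 and -0.83 in 8 mm defects. Every day 21 array of Myh4 was thus below every day 1 array, a separation that 0.620% of all genes showed at that day. Myh4 fell by 3.83 ± 1.37 at day 5 (adjusted p = 0.0369), fell by 8.51 ± 1.57 at day 7 (adjusted p = 1.72e-05) and fell by 8.61 ± 1.51 at day 21 (limma adjusted p = 6.04e-06).

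The promoter of this gene, with its CArG box, E-box and TATAAA, is the first of those printed. The other adult fast heavy chains Myh1 and Myh2 fell by 5.91 ± 1.45 and 6.77 ± 1.62 at day 21. Mybpc2, the fast myosin-binding protein, fell by 7.40 ± 1.29. Mybpc1, the slow form of that protein, was at the floor on 1 of 8 day 1 arrays (8 mm rat 11) and between 1.96 and 5.95 on the other 7. At day 21 its lowest, median and highest of 12 arrays were -6.64, -1.24 and 2.80, so that the days overlapped. It fell by 4.46 ± 1.33 at day 7 (adjusted p = 0.00946) and fell by 4.60 ± 1.28 at day 21 (limma adjusted p = 0.00432), and its day 14 difference of -3.07 had an adjusted p of 0.0817.

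Myl2, the regulatory light chain of slow and cardiac myosin, had the narrowest range between group means in this role. At day 1 it stood at -1.78, 2.73 and 1.12 in the 4 mm arrays and at 3.00, -0.89, 0.63, 1.30 and 1.94 in the 8 mm arrays. At day 21, 6 of 12 arrays were at the floor and the highest was 1.09, inside the day 1 range. It fell by 3.77 ± 1.38 at day 7 (adjusted p = 0.0389) and fell by 4.21 ± 1.33 at day 21 (limma adjusted p = 0.0125).

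Of the 9 thin filament and troponin genes, 4, 6, 6 and 8 fell at days 7, 10, 14 and 21, Actc1 being the one not called at day 21. Acta1 encodes the alpha-actin of skeletal fibres. It stood at 1.60, 7.96 and 6.68 in the 4 mm day 1 arrays and at -2.29, 3.83, 4.92, 5.97 and 5.82 in the 8 mm ones. At day 21 it ranged over -6.64, -1.32 and 1.02 (lowest, median, highest) in 4 mm and over -6.64, -4.30 and -0.26 in 8 mm defects. Only the low day 1 array of 8 mm rat 11 fell among the day 21 values. The difference was -5.30 ± 1.67 at day 7 (adjusted p = 0.0150) and -7.73 ± 1.61 at day 21 (limma adjusted p = 1.23e-04).

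Tnnc2, the calcium-binding troponin subunit of fast fibres, was at 1.44, 7.56 and 6.87 in 4 mm and at -1.46, 4.41, 5.23, 6.09 and 6.25 in 8 mm defects at day 1. At day 7 its lowest, median and highest of 10 arrays were -6.64, -5.70 and 3.35, and at day 21 (12 arrays) -6.64, -1.5 and 2.47. Of the day 7 arrays, 4 mm rat 12 (-1.15) and 8 mm rats 12 (2.66) and 13 (3.35) lay inside the day 1 range. Tnnc2 fell by 8.29 ± 1.75 at day 7 (adjusted p = 1.84e-04) and fell by 6.82 ± 1.69 at day 21 (limma adjusted p = 0.00131). Its day 7 and day 21 differences were -6.36 and -4.89 with rats numbered 16 or lower only. Tnnc1, the subunit of slow and cardiac muscle, was never at the floor and had the narrowest range of group means in this role. It ranged from -0.39 to 3.38 (median 1.40) at day 1 and from -1.56 to 0.27 (median -0.27) at day 7. It fell by 1.85 ± 0.51 at day 7 (adjusted p = 0.00438) and fell by 1.70 ± 0.49 at day 21 (limma adjusted p = 0.00553). For Tnnc1 these differences were -0.84 and -0.69 with rats numbered 16 or lower only.

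Tnni2, the inhibitory troponin subunit of fast fibres, was never at the floor either. Its day 1 values were 0.38, 5.87 and 5.07 in 4 mm and -1.28, 2.91, 5.28, 5.07 and 4.97 in 8 mm defects, and its day 21 values lay between -1.51 and 0.87 with a median of -0.59. The 2 low day 1 arrays lay within the day 21 range and the other 6 above it. It fell by 3.63 ± 0.89 at day 7 (adjusted p = 0.00136) and fell by 4.09 ± 0.86 at day 21 (limma adjusted p = 1.38e-04).

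Actc1, the cardiac alpha-actin that developing and regenerating skeletal muscle also makes, did not follow the rest, and it is described because of its values. At day 1 it stood at -0.17, 3.10 and 2.76 in 4 mm defects, at 2.02 in 1 array of 8 mm defects and at the floor in the other 4. At day 3 the lowest, median and highest were -1.31, 5.02 and 7.42 in 4 mm (8 arrays) and -6.64, 2.88 and 6.76 in 8 mm defects (11 arrays). Its highest group mean was at day 3, and 16 of 19 day 3 arrays were above the day 1 mean. The day 3 difference of 3.84 ± 1.92 did not pass (limma adjusted p = 0.307), nor did that at day 21 (-2.06 ± 2.07, adjusted p = 0.497).

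**Figure D4:**
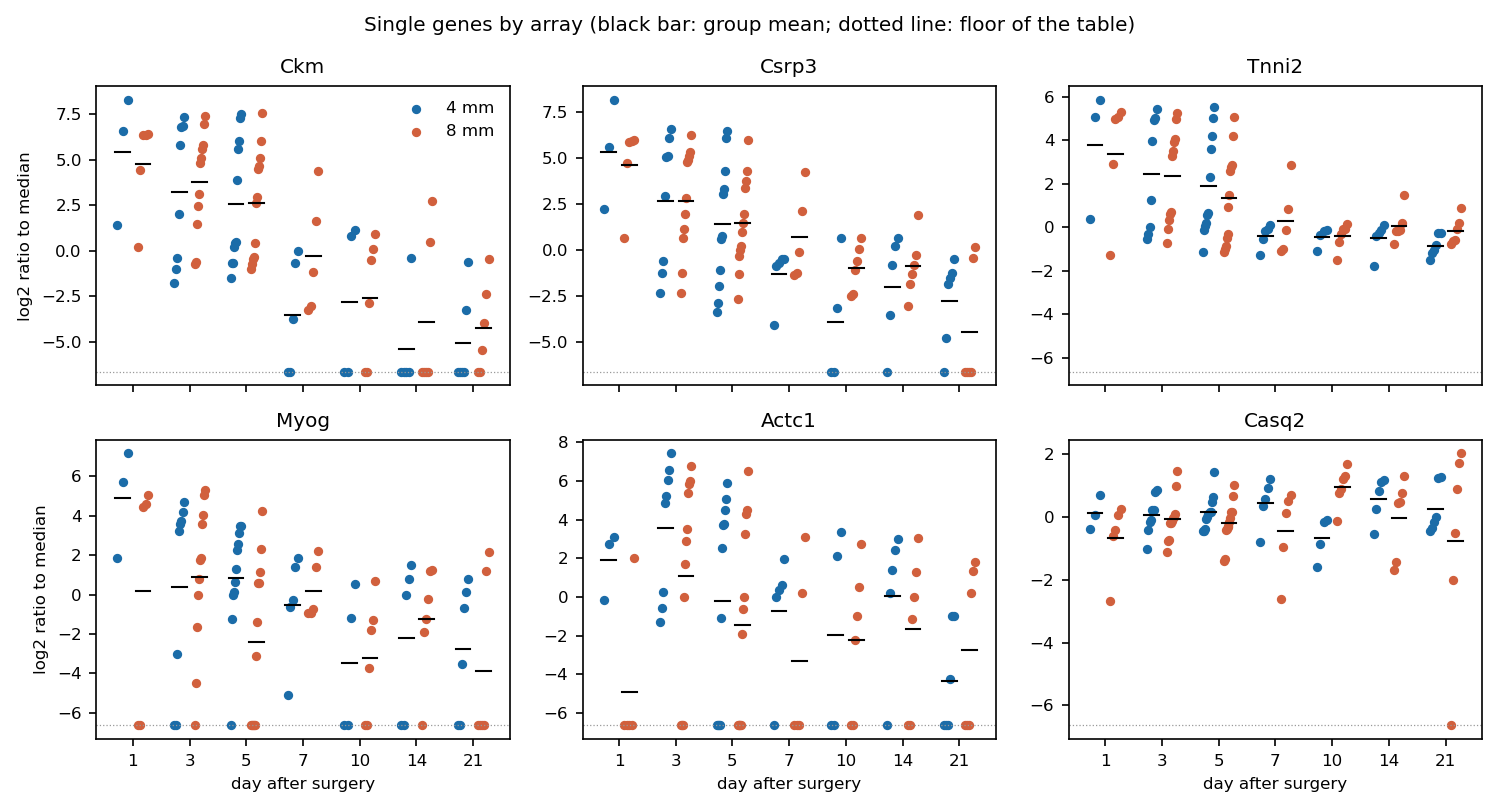
Log2 value on each array (vertical axis) by day (horizontal axis) of Ckm, Csrp3, Tnni2, Myog, Actc1 and Casq2, one point per array, coloured by defect size, with the floor at -6.64. Ckm and Csrp3 at day 21 lie below all their day 1 arrays, Actc1 is highest at day 3, and Casq2 stays near 0.

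Of the 12 Z-disc, titin and desmin genes, 7, 9, 8 and 8 fell on these 4 days. Csrp3 encodes muscle LIM protein, a Z-disc stretch sensor. It was at 2.19, 8.15 and 5.55 in 4 mm and at 0.61, 4.72, 5.86, 5.92 and 5.95 in 8 mm defects at day 1, and its lowest, median and highest at day 21 were -6.64, -1.71 and -0.50 in 4 mm and -6.64, -6.64 and 0.14 in 8 mm. No day 21 array reached the lowest day 1 array. Csrp3 fell by 3.54 ± 1.16 at day 5 (adjusted p = 0.0206), fell by 5.28 ± 1.33 at day 7 (adjusted p = 0.00197) and fell by 8.58 ± 1.29 at day 21 (limma adjusted p = 1.64e-07). With rats numbered 16 or lower only, it fell by 7.03 at day 21.

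Xirp1, an actin-binding repeat protein of muscle attachment sites, was the only one of the 47 genes without overlap between days 1 and 7, a separation of 0.501% of all genes. It ranged from 0.27 to 2.32 on the 8 day 1 arrays and from -6.64 to 0.02 on the 10 day 7 arrays, 5 of them at the floor. The difference was -5.08 ± 1.16 (limma adjusted p = 5.59e-04).

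Myot, which encodes myotilin, an actin cross-linker of the Z-disc, was lowest at day 10. It ranged from -0.93 to 4.12 (median 1.23) at day 1, and 6 of 10 arrays were at the floor at day 10, among them all 4 of the 4 mm defects. It fell by 6.18 ± 1.39 at day 10 (adjusted p = 6.22e-04), while its differences of -3.37 at day 7 (adjusted p = 0.0692) and -2.86 at day 21 (limma adjusted p = 0.101) did not pass.

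Des encodes desmin, the intermediate filament that links Z-discs and that smooth muscle cells and pericytes also make. It ranged from -2.78 to 2.93 (median 0.94) at day 1, from -0.65 to 2.89 (median 0.89) at day 5 and from -1.88 to -0.42 (median -0.99) at day 21. The day 21 values lay within the day 1 range. It fell by 1.65 at day 14 (adjusted p = 0.0114) and fell by 1.57 ± 0.49 at day 21 (limma adjusted p = 0.0115), and its day 5 difference was 0.36. Its day 14 and day 21 differences were -0.23 and -0.40 with rats numbered 16 or lower only.

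The Z-disc genes not called at day 21 were Actn2 (-1.83), Ttn (-2.19), Tcap (-3.09) and Myot. Actn3, the alpha-actinin of fast fibres, fell by 6.80 ± 1.16, and Ankrd23 fell by 6.33 ± 1.01. Ldb3, a Z-disc adaptor, fell by 5.51 ± 1.53 on the probe used, and its other probes gave -0.14 to -1.06, so that this call rests on 1 of 4 probes. Ankrd23 has a further probe that gave -2.22, a smaller size than that of the probe used. Of the 47 genes, 10 had several probes, and those of Ttn, Cacna1s and Sln disagreed as well, the 8 of Ttn giving -0.85 to -6.44 at day 21.

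Of the 9 genes of excitation and calcium handling, 2, 3, 3 and 5 fell at days 7, 10, 14 and 21. Ryr1 encodes the calcium release channel of the sarcoplasmic reticulum. It ranged from -6.64 to 3.73 (median 1.53, 1 of 8 arrays at the floor) at day 1 and from -6.64 to 1.84 (median -4.28, 6 of 12 at the floor) at day 21. The ranges overlapped, and the difference of -4.13 ± 1.37 passed at day 21 (limma adjusted p = 0.0181), where that of -3.54 at day 7 did not (adjusted p = 0.0631). Cacna1s, the voltage sensor that opens this channel, fell by 5.62 ± 1.25 at day 21, but its other probe gave 0.12. Atp2a1, the calcium pump of fast fibres, fell by 3.96 ± 0.80.

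Pvalb encodes parvalbumin, the calcium buffer of the fastest fibres. It ranged from -1.09 to 6.39 (median 3.81) at day 1 and from -6.64 to 4.28 (median -1.72) at day 21. It fell by 5.65 at day 10 (adjusted p = 0.0110) and fell by 4.62 ± 1.58 at day 21 (limma adjusted p = 0.0225).

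Casq2, the calsequestrin of slow and cardiac muscle that stores calcium in the reticulum, stayed near its own median on nearly all arrays. It ranged from -2.68 to 0.70 (median -0.15) at day 1, from -1.12 to 1.48 (median -0.11) at day 3 and from -6.64 to 2.03 (median -0.09, 1 of 12 at the floor) at day 21. The day 21 difference was 0.02 ± 0.53 (limma adjusted p = 0.986). Its highest group mean, 0.96 ± 0.62 (SD, n = 6), was that of 8 mm defects at day 10. Casq1, the fast form, fell by 4.57 ± 1.22 at day 21. Cacng1 (-0.63), Trdn (-2.96) and Sln (-1.36) did not pass at that day.

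Of the 5 energy genes, all fell at day 7, 3 did at day 10, 4 at day 14 and 3 at day 21. Ckm, the muscle creatine kinase that regenerates ATP from phosphocreatine, had the largest difference of the 47 genes at day 21. It stood at 1.45, 8.31 and 6.58 in 4 mm and at 0.23, 4.43, 6.44, 6.34 and 6.35 in 8 mm defects at day 1. At day 3 the lowest, median and highest were -1.75, 3.92 and 7.37 in 4 mm and -0.73, 4.85 and 7.41 in 8 mm defects. At day 21 they were -6.64, -6.64 and -0.63 in 4 mm, with 4 of 6 arrays at the floor, and -6.64, -4.69 and -0.43 in 8 mm, with 2 of 6. Day 3 arrays ranged from below the lowest day 1 value to just under the highest, and no day 21 array reached the lowest day 1 value. Ckm fell by 7.01 ± 1.57 at day 7 (adjusted p = 4.16e-04) and fell by 9.76 ± 1.51 at day 21 (limma adjusted p = 3.54e-07), the latter by 7.76 with rats numbered 16 or lower only.

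Mb encodes myoglobin, the oxygen store of oxidative fibres. It ranged from -0.98 to 5.66 (median 3.95) at day 1, from -3.57 to 3.48 (median -0.84) at day 7 and from -6.64 to 1.11 (median -0.85) at day 21. The lower day 1 arrays lay among the later values, and the difference was -3.75 ± 1.01 at day 7 (adjusted p = 0.00393) and -4.58 ± 0.98 at day 21 (limma adjusted p = 1.76e-04). For Mb these differences were -2.23 and -3.065 with rats numbered 16 or lower only. Pgam2, the muscle phosphoglycerate mutase of glycolysis, fell by 3.81 ± 0.95 at day 21.

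Eno3, the muscle enolase, had the narrowest range of group means in this role. It ranged from -2.30 to 3.77 (median 1.54) at day 1, from -1.33 to 0.15 (median -0.48) at day 7 and from -1.0 to 0.57 (median 0.22) at day 21. It fell by 1.66 ± 0.62 at day 7 (adjusted p = 0.0450), a difference of 0.049 with rats numbered 16 or lower only, and its day 21 difference of -1.14 did not pass (limma adjusted p = 0.154). Pygm, the muscle glycogen phosphorylase, fell by 1.21 ± 0.42 at day 5 (adjusted p = 0.0307) and fell by 1.53 ± 0.48 at day 7 (adjusted p = 0.0146), and its day 21 difference was -0.40 ± 0.46 (limma adjusted p = 0.565).

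Both factors that switch on muscle genes were lower at day 21. Myod1, which commits cells to the muscle lineage, ranged from -1.55 to 3.58 (median 1.67) at day 1 and was at the floor on 7 of 11 arrays at day 14. It fell by 6.05 ± 1.53 at day 14 (adjusted p = 0.0020) and fell by 4.88 ± 1.5 at day 21 (adjusted p = 0.0102), and its day 7 difference of -3.77 did not pass (limma adjusted p = 0.0722). Its day 14 and day 21 differences were -5.17 and -4.21 with rats numbered 16 or lower only. Myog, which drives the differentiation of myoblasts, was at 1.85, 5.71 and 7.16 in 4 mm defects at day 1, at the floor in 2 of the 8 mm defects and at 4.46, 5.03 and 4.59 in the other 3. At day 21 it was at the floor on 6 of 12 arrays and reached 2.16, so that the days overlapped through the low day 1 arrays. It fell by 5.89 ± 1.84 at day 10 (adjusted p = 0.0175) and fell by 5.85 ± 1.76 at day 21 (limma adjusted p = 0.00847), and its day 7 difference of -2.71 did not pass (adjusted p = 0.306). For Myog the day 10 and day 21 differences were -4.365 and -4.32 with rats numbered 16 or lower only.

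Genes of fast and of slow fibres were both lower at the later days. Of 14 fast fibre members, 11, 12, 12 and 14 fell at days 7, 10, 14 and 21, and of 7 slow fibre members 3, 3, 4 and 6 did, Casq2 being the slow one not called at day 21. Median differences were -4.54, -5.41, -5.69 and -5.88 for the fast and -3.30, -2.36, -1.93 and -3.60 for the slow genes. Whether the lists differ from each other was not tested. Among the slow genes, Myh7, the slow heavy chain, fell by 5.68 ± 1.44 and Tnni1 by 5.71 ± 1.26 at day 21. Tnnt1, the slow troponin T, fell by 2.65 ± 0.88 and Myl3 by 3.60 ± 1.15.

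On single arrays the mean of the fast genes ranged from -2.58 to 6.54 (median 2.56) at days 1 to 5 and from -4.18 to 1.96 (median -1.74) at days 7 to 21. The mean of the slow genes ranged from -1.74 to 3.60 (median 0.62) and from -3.66 to 0.07 (median -1.37). The early range was wider for the fast genes than for the slow ones. In both, all later arrays lay below the early median, and the lowest of them lay below the early range.

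**Figure D5:**
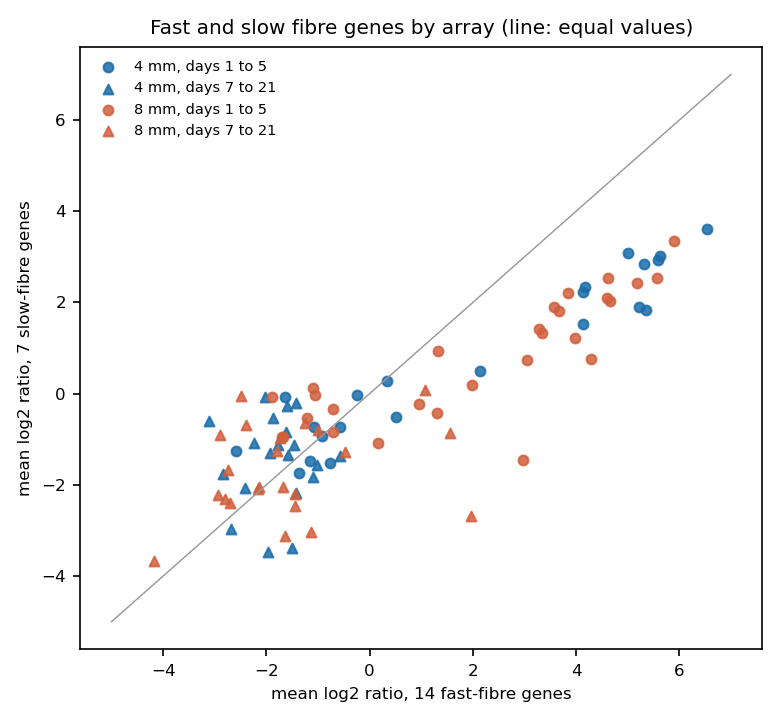
Mean log2 value of the 14 fast fibre genes (horizontal axis) and of the 7 slow fibre genes (vertical axis) on each of the 93 arrays. Points are coloured by defect size, with circles for days 1 to 5 and triangles for days 7 to 21. Early arrays spread along a diagonal up to 6.54 and 3.60, and arrays of days 7 to 21 lie at the lower left.

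No difference between defect sizes passed the test in any of the 47 genes. The model called 0 of 47 between 8 mm and 4 mm defects at each of the 7 days and over all days, where of all genes 0.00% were called at each of days 1, 3 and 5, then 0.369%, 0.263%, 1.63% and 2.40% at days 7 to 21, and 0.413% over all days. At an unadjusted limma p under 0.05 the counts were 1, 0, 1, 3, 5, 3 and 3 of 47 at the days in order and 1 over all days, where all genes gave 2.64%, 3.04%, 2.97%, 15.2%, 8.79%, 12.3% and 15.8%, and 13.2% over all days. Median differences (8 mm minus 4 mm) were -0.97, -0.02, -0.08, 0.88, 0.33, 0.46 and -0.37, and with rats numbered 16 or lower only they were 1.99, 1.67 and 0.70 at days 1, 3 and 5. The effect of day was called for 31 of 47 genes within 4 mm defects (33.5% of all genes) and for 31 within 8 mm defects (40.2%), and with rats numbered 16 or lower only for 0 (17.2%) and 22 (28.9%). The interaction of size and day was called for 0 (0.538% of all genes), with Mybpc1, Pvalb, Pygm and Sln (8.51% of the 47) at an unadjusted limma p under 0.05, where all genes gave 12.2%. With only 3 arrays in the smallest group, differences may go undetected.

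The size differences nearest the threshold were those of Trdn and Pvalb at day 21, and these were picked for their values. Trdn, the triad protein triadin, was at the floor on 4 of 6 arrays in 4 mm defects with a highest value of -1.38, and between -1.75 and 2.70 in 8 mm defects. The ranges overlapped, and the difference was 5.81 ± 1.77 (limma adjusted p = 0.0571). Pvalb ran the other way, from -1.97 to 4.28 in 4 mm defects and at the floor on 4 of 6 arrays with a highest value of 2.06 in 8 mm defects (-5.94 ± 1.96, limma adjusted p = 0.0856). Pygm at day 7 averaged 0.47 in 8 mm and -1.72 in 4 mm defects (2.19 ± 0.63, limma adjusted p = 0.0948). Leaving out 4 mm day 14 rat 18 or rat 20 let 1 gene pass at day 14 or day 21.

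Across the 93 arrays most of the 47 genes were high and low on the same arrays. Pearson correlation of a gene with the mean of the other members was 0.7 or more for 29 of the 47, with a median of 0.77, and the median was 0.70 for deviations from the group means. The highest were Tnni2 (0.936), Myl11 (0.913) and Pgam2 (0.903). It was under 0.5 for 9, namely Casq2 (0.077), Trdn (0.148), Ldb3 (0.186), Xirp1 (0.364), Ttn (0.388), Pygm (0.429), Cacng1 (0.451), Tnnt1 (0.463) and Actc1 (0.476). These values hold for the probe used: other probes reached 0.82 for Ttn, 0.64 for Trdn and 0.51 for Ldb3 with the mean of all 47. Of genes outside the list, Apobec2 (0.92), Rpl3l (0.887), Ampd1 (0.836), Tpm1 (0.833) and Jsrp1 (0.817) had the highest correlation with the mean of the 47. These values describe arrays that share days and depth of signal and carry no test.

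In 43 of the 47 genes the highest group mean was at day 1, in 40 of these in 4 mm and in 3 in 8 mm defects. The 4 others were Actc1, Ttn and Tnnt1 at day 3 and Casq2 at day 10. Among the 4 mm day 1 arrays, rats 17 and 18 had 46 and 42 genes above 1 and rat 13 had 13. With only rats numbered 16 or lower, the median day 1 difference (8 mm minus 4 mm) was 1.99 instead of -0.97. Rat 13 was then the only 4 mm array. What defect size and rat number each add to the 40 against 3 was not tested.

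Further lists of muscle genes were compared between days 21 and 1. In that comparison, 12.8% of all genes were called lower and 13.4% higher. Counts near these shares are not read as particular to a list. Of 13 further sarcomere genes measured, 5 fell and 1 rose, with Klhl41, a sarcomere assembly protein, at -5.08 ± 1.02 and Tpm2, a tropomyosin also made in smooth muscle, at 1.51 ± 0.47. Of 12 genes of the sarcolemma and triad, 4 fell, among them Jsrp1 at -2.96 ± 0.70 and Cav3, the muscle caveolin, at -4.43 ± 1.47. Of 11 further energy genes, 3 fell and 1 rose, with Ckmt2, the mitochondrial creatine kinase of muscle, at -6.98 ± 1.58, Ampd1 at -6.09 ± 1.21 and Cox8b at -5.08 ± 1.49, and Pfkm at 1.41 ± 0.51.

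Of 11 genes of satellite cells and muscle regeneration, 2 fell and 1 rose at day 21. Among all genes, 12.8% were called lower and 13.4% higher, so these counts are not read as particular to the list. Myf6, a late myogenic factor, fell by 7.44 ± 1.84 and Chrnd, a subunit of the acetylcholine receptor, fell by 5.63 ± 1.19, while Ncam1, an adhesion molecule that nerve and other cells share, rose by 1.86 ± 0.27. Embryonic myosin Myh3 (-2.62 ± 1.07), the fusion factor Mymk (1.91 ± 1.31) and Myf5 (1.07 ± 1.24) did not pass. Of 3 atrophy ligases, Trim54 fell by 4.74 ± 1.17, and Trim63 (-3.09 ± 1.55) and Fbxo32 (0.07 ± 1.01) did not pass.

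Markers of other contractile cells were followed on the same arrays. The shares of all genes called at day 21 were 12.8% lower and 13.4% higher. Of 6 smooth muscle and pericyte genes measured, 3 rose at day 21 and 0 fell, Myh11, the smooth muscle myosin, by 3.14 ± 0.36 and Rgs5 by 2.02 ± 0.35. The mean of the list per array ran from -2.57 to -0.72 at day 1, from -0.42 to 1.59 at day 5 and from -3.50 to 0.08 at day 21. Of 7 cardiac genes, Myh6 fell by 5.53 ± 1.47 and Myl4 by 3.91 ± 0.64, and 1 rose. Of 15 isoforms of the same proteins that are not confined to skeletal muscle, 7 rose and 3 fell. Among them were Eno1 at -2.01 ± 0.32, Pgam1 at -1.48 ± 0.26 and Atp2a2 at 1.72 ± 0.47.

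Among markers of other tissues at the site, 5 of 7 osteoblast genes rose at day 21, and the mean of that list ran from -3.37 to -1.61 at day 1 and from -0.74 to 2.77 at day 21. Of 5 epidermis genes 1 fell, Krt14 (-2.38 ± 0.71), and the list mean ran from -0.86 to 5.86 at day 1 and from -2.87 to 1.49 at day 21. Of 6 neuron, astrocyte and myelin genes 2 rose, and of 2 Schwann cell genes none was called. Of 2 tendon genes 1 rose, of 5 adipocyte genes 2 rose and of 3 erythroid genes 2 rose. Over all these lists, the calls of Nrap, Tmod4, Cav3, Jph2, Sgca, Actb, Actg1, Actn1, Myl6, Hbb and Alas2 at day 21 were lost under quantile normalization with their sign kept. For comparison, 12.8% of all genes were called lower and 13.4% higher at day 21. Counts of 1 or 2 in such short lists are therefore not read as particular to them. These lists moved over the same days as the 47 genes, and their part in the result was not tested.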

How the data were processed

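Total RNA from 93 defects was put on one-colour arrays, and the authors deposited linear ratios to each probe's median over the arrays, as found from the values (the median was 1, within 0.005, for 87.8% of 41090 probes). For scaling between arrays, background correction and scanner software, the method is not given in the sources used here. Ratios were taken to log2 with no pseudocount, and 13.4% of values were at the floor. The platform annotation named 20932 probes with 1 gene symbol and 20158 with none, and 17415 probes matched RefSeq. Of 3881 genes with several probes, the probe with the largest interquartile range was used.

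A limma 3.58.1 model (R 4.3.3) of 14 group means, named from the titles, was fitted to all 15974 genes with Benjamini-Hochberg adjustment, and was tested on simulated data. Summaries used Python 3.11.15. The labels name a rat per array and nothing on shared processing, so p-values measure the spread between these arrays, whose number limits the precision. The members and gene lists were chosen with earlier results of these data known. Genes given by array are, per role, the 2 with the widest and the 1 with the narrowest range of group means, plus Myod1 and Myog. Actc1, Tnni2, Xirp1, Ankrd2, Pygm and Trdn were added after their values were seen. The alternatives are named in the closing section, and the one with only rats numbered 16 or lower was added after seeing the data.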

Additional observations from a re-analysis of the deposited data

Results flagged for a closer look

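In groups of 4 to 10 arrays, 180 sets of values of the 17 genes chosen by the rule, and of the counts, were searched for 1 array standing apart from the rest, and 20 were found. For independent sets of normally spread values, chance flags about 1 in 20, which would give 9. Here many values are at the floor and most of the genes are high and low on the same arrays. The number that chance gives in these data is therefore not known, and no explanation was weighed. Values are log2.

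The 8 mm day 1 array of rat 11, one of the arrays of low overall level, stood below the others in 5 genes: Mybpc1 at -6.64 (nearest array 2.03), Tnnc2 at -1.46 (nearest 4.41), Acta1 at -2.29 (nearest 3.83), Csrp3 at 0.61 (nearest 4.72) and Eno3 at -2.3 (nearest 0.99). At day 3, Myod1 was at -6.64 in 4 mm rat 18 (nearest 0.42).

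At day 7 in 4 mm defects, Tnnc2 was high in rat 12 at -1.15 (nearest -5.08), Csrp3 was low in rat 10 at -4.08 (nearest -0.87) and Pvalb was low in rat 13 at -6.64 (nearest -0.71). At day 10 in 4 mm defects, rat 10, also of low overall level, was high in Mybpc1 at -0.38 (nearest -5.84) and in Tnnc2 at -2.15 (nearest -6.64), and rat 12 had 3 of the 47 genes above 1 (nearest 2). In 8 mm defects of that day, Mybpc1 was at -5.56 in rat 13 (nearest -0.76).

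At day 14, Ckm was at -0.41 in 4 mm rat 16 (nearest -6.64), Tnnc1 was at -0.73 in 8 mm rat 11 (nearest -0.11), and 8 mm rat 12 had 19 of the 47 genes above 1 (nearest 5). At day 21, Ryr1 was at -1.91 in 4 mm rat 10 (nearest -6.64), Mb was at -6.64 in 4 mm rat 13 (nearest -2.06) and at -5.5 in 8 mm rat 13 (nearest -0.94), and Eno3 was at -0.45 in 8 mm rat 11 (nearest 0.28).

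Casq2 at day 10 was measured from the day 1 mean of each size. It lay below that mean in every 4 mm array (-0.81 on average) and above it in every 8 mm array (1.62). The 2.43 between these changes was not itself tested. The plain difference between sizes at day 10 was tested, and Casq2 did not pass. Its interaction of size and day over all days had a limma adjusted p of 0.602.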

How the results depend on the processing

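Counts are of the 47 genes called, against day 1 unless a size or another day is given. For most settings the share of all genes called is not given, so a moved count is not read as particular to the 47. No gene called as reported changed sign except Eno3 at day 7, which was 0.049 with only rats numbered 16 or lower. With those rats the counts were 0 at day 5, 3, 6, 4 and 11 at days 7, 10, 14 and 21, 1 between sizes at day 21 and 0 over the days in 4 mm defects (as reported 4, 27, 30, 30, 36, 0 and 31). With genes never at the floor, which leaves 6 of the 47, they were 2, 5, 5, 5 and 4 at days 5 to 21. The count was then 1 from day 7 to 21, which was a rise, and 1 between sizes at day 7. Over the days it was 5 in 4 mm and 4 in 8 mm defects. Array weights gave 3 at day 3 (1 of them higher), 22 at day 5, 1 from day 7 to 21 and 1 between sizes at day 7. Centring gave 7 at day 5, 2 from day 7 to 21 (1 of them higher) and 1 between sizes at days 7 and 21. Raising low values gave 1 at day 3, 8 at day 5 and 0 from day 7 to 21. Without the 7 arrays of low level the counts were 1 at day 3, 12 at day 5 and 5 from day 7 to 21 (1 of them higher). Between sizes the count was 1 at days 7 and 21. Genes of larger spread alone gave 0 at day 5 and 0 from day 7 to 21, quantile normalization 0 and the mean of all probes 1 from day 7 to 21. The cause of these moves was not tested, apart from the fewer genes or arrays that a setting leaves.

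Leaving out each array in turn of groups of 3 to 5 gave 0 at day 3, then 0 to 8, 15 to 31, 23 to 34, 25 to 35 and 27 to 38 at days 5 to 21, 0 to 3 from day 7 to 21, 27 to 35 and 28 to 34 over the days in 4 and 8 mm defects, 0 to 1 between sizes at days 14 and 21 and 0 in the other size tests and the interaction. A fit of only the compared groups was not run for the interaction and the size difference over all days, where it holds the same arrays.

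Equal rat numbers did not in general pair the arrays. There were 34 pairs of arrays with the same day and rat number but different sizes. Over all genes, the correlation of their deviations had a median of 0.01. It was over 0.1 for 2 pairs, those of day 5 rats 16 (0.332) and 17 (0.175). With the rat number as a replicate block, the counts were 1, 16, 18 and 28 at days 3, 5, 7 and 21, 15 over the days in 8 mm defects and 1 between sizes at day 21, and the median size difference at day 1 was 0.18 (as reported -0.97; 1.99 with rats numbered 16 or lower). Centring moved the median of all genes by 0.23, 0.41, 0.33, 0.13, 0.13 and 0.01 at days 3 to 21, and the median of the 47 was then -3.97 at day 7 and -4.44 at day 21. The number of arrays, 3 in the smallest group, and the floor limit what these data can show.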
